A study of Mus musculus with 6 samples.

Results

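The genes described here code for the collagen chains and for the enzymes and the chaperone that modify them. They were chosen by name: every gene listed in the count matrices with a Col symbol of the form used for a numbered collagen chain, plus P4ha2, P4ha3, Plod1, Plod2, Plod3, Lox, Loxl1, Loxl2, Loxl3, Loxl4 and Serpinh1. That gave 55 of the 54446 genes listed, of which 44 code for collagen chains and 11 for modifying enzymes or the chaperone. They were measured in 6 droplet-based single-cell RNA-seq libraries made with a 5' kit from cultured tumour cells. The mouse glioma line GL261 gave 2 libraries, from cells grown in a differentiation medium with fetal calf serum. The cultures named GL261-GSCs were derived from it, are labelled as its stem cells, and gave 4 libraries from cells in a defined medium for such cells. All were cultures of the 1 line with no treatment or engineered allele in the labels, and no label says whether the replicates of a group were separate cultures, so that p-values measure the spread between these libraries, which may be technical. The labels also do not say whether cells or nuclei were loaded. Growth medium and stem cell label changed together between the groups and cannot be told apart.

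Collagens are extracellular proteins wound from several chains into a helix whose strands depend on hydroxylated proline. In the endoplasmic reticulum, prolyl 4-hydroxylases (P4ha2 and P4ha3 are catalytic subunits) and lysyl hydroxylases (Plod1 to Plod3) modify the chains, and the chaperone Serpinh1, also called HSP47, binds the folded helix. Outside the cell, lysyl oxidases (Lox and Loxl1 to Loxl4) cross-link the fibrils. Brain tissue holds little fibrillar collagen, and most of its collagen lies in the basement membranes of vessels and in the meninges. Types II, IX and XI together form the thin fibrils of cartilage and of the vitreous of the eye.

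Total UMIs (unique molecules counted) over all barcodes ran from 80899005 to 121309232, and the 31731 barcodes called cells held 33320530 to 79472306 UMIs per library. Depth per called cell was uneven. Its median was 15477.5 and 13651.5 UMIs for the GL261 libraries. For GL261-GSCs the median fell with each replicate number, from 15374.5 through 11889.5 and 10638 to 6670 UMIs. The part of this depth in differences of level among the GL261-GSCs libraries was not tested. Pairs of libraries shared 32 to 59 cell barcodes, where 26.1 to 57.9 would be shared by chance. Each UMI stands for 1 captured 5' end, so levels were not divided by gene length. They are given as CPM, counts per 1000000 UMIs of called cells with library sizes scaled by TMM normalization. Of the markers fixed for the labelled tumour cells, Vim, Nes and Sox2 were found in both groups. In edgeR, Vim and Nes were lower in GL261-GSCs (log2 -1.66 and -1.52, adjusted p = 0.000386 and 0.00523) and Sox2 was higher (log2 0.87, adjusted p = 0.0334). Gfap was at 1.36 CPM or less in every library and Olig2, at 401 to 787 CPM in GL261-GSCs, was at 0.0166 and 0.918 CPM in GL261. Most markers of other cells that make collagen were near 0. Pdgfrb, on the fibroblast and pericyte lists, was at 4.93 and 5.05 CPM in GL261 and at 0.0152 to 0.175 CPM in GL261-GSCs. It was called lower there (log2 -5.40, edgeR adjusted p = 0.00109). The 6 fibroblast markers summed to 6.21 and 6.44 CPM in GL261 and to 0.425 to 1.95 CPM in GL261-GSCs, and of the 5 endothelial markers, summed at 0.394 to 1.64 CPM, Cldn5 had no UMI in any library. Of the 5 pericyte markers, Rgs5 and Kcnj8 had no UMI in GL261 and 21 and 6 UMIs in GL261-GSCs. The sum of 67.5 to 209 CPM over all libraries came almost wholly from Cspg4, a proteoglycan gene that glial progenitors also use. The 5 microglia and macrophage markers summed to 12.9 and 13.0 CPM in GL261 and to 0.192 to 0.349 CPM in GL261-GSCs, and Csf1r alone was at 12.9 and 12.6 CPM in GL261 and 0.192 to 0.243 CPM in GL261-GSCs. The part of any of these cells in the results was not tested beyond these levels.

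GL261-GSCs held a different set of collagen transcripts from GL261. Collagen I chain Col1a1, collagen XII, collagen XVIII, 2 chains of collagen VI, 4 lysyl oxidase-like genes and P4ha3 were lower in GL261-GSCs, and collagen III, 2 chains of collagen IX, Col17a1 and Col22a1 were higher. Of the 55 genes, 41 passed the filter on low counts and were tested. At an adjusted p under 0.05 in edgeR's quasi-likelihood test, 5 were called higher in GL261-GSCs, 18 lower and 18 neither. The 23 calls are 56.1% of the genes tested, against 29.9% of all 18439 genes tested in the same fit. Over all genes, 15.8% were called higher and 14.1% lower, and the median log2 fold change was 0.04, against -1.03 for the 41. By class, 5 of 31 collagen chains were higher and 13 lower, and 0 of 10 enzyme and chaperone genes were higher and 5 lower, with a median of -1.72. None of those 10 was higher at an unadjusted edgeR p under 0.05, or called higher by DESeq2 or limma-voom. In 21 of the 41 genes every GL261-GSCs library lay below both GL261 libraries, in 7 every one lay above, and in 13 the groups overlapped. Over all genes tested those shares were 28.0% below and 28.7% above, 56.7% together. With either GL261 library left out, 43 of the genes were tested and 13 called, among them 2 collagen chains higher and 6 lower. In those fits 10.3% (without replicate 1) and 9.3% (without replicate 2) of all genes tested were called.

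**Figure D1:**
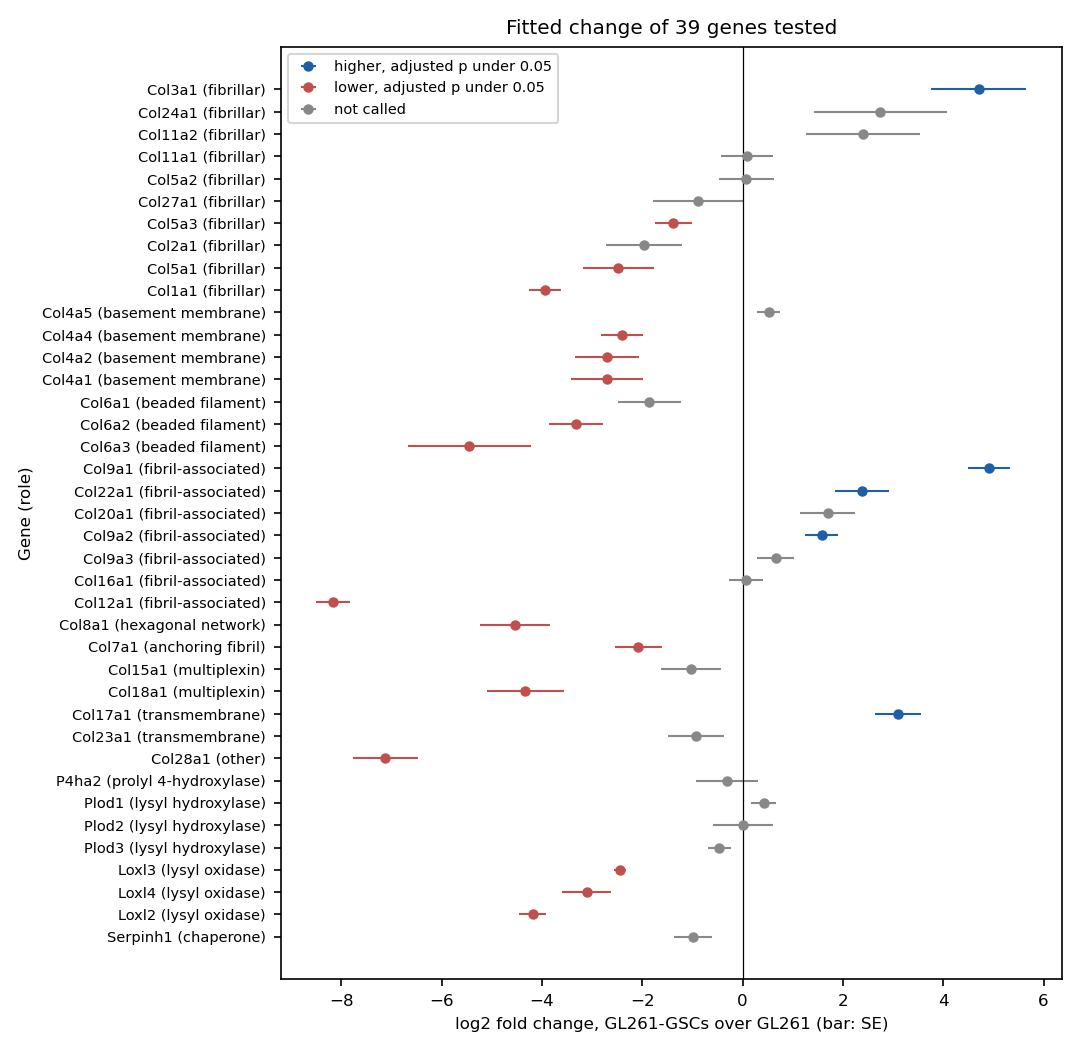
Log2 fold change (GL261-GSCs over GL261, horizontal axis) of 39 of the 41 genes tested, grouped by role; points are edgeR estimates, bars their SE, and colour marks genes higher, lower or not called at an adjusted p under 0.05. P4ha3 and Loxl1, with 2 and 1 UMIs in GL261-GSCs, are left out because their fitted value depends on the prior count. Lysyl oxidase, basement membrane and beaded filament genes lie mostly left of 0, and the fibril-associated genes lie mostly right of it except Col12a1 at -8.16.

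The starting regions of 4 members described below are shown. They are Col3a1 and Col9a1, the chains with the largest rises, P4ha3, all but absent in GL261-GSCs, and Serpinh1, missing from most cells of 1 library. No result below rests on these sequences, and their part in the levels was not tested. Each is the 100 bases before a RefSeq start site (GRCm38.p6), read 5′ to 3′ on the gene's strand, with GC boxes in capitals. The table gives 2 start sites for Col9a1, and the window shown lies before the one that matches the gene start given below. They lie at chr1:45311438-45311537, chr1:24177510-24177609, chr7:100285420-100285519 and, on the minus strand, chr7:99353240-99353339.
Col3a1: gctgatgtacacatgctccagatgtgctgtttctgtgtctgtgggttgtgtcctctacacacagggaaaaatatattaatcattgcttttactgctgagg
Col9a1: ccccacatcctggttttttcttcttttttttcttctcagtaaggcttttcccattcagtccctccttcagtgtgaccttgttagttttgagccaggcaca
P4ha3: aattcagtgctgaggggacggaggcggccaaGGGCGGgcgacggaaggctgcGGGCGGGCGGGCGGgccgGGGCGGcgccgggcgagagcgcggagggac
Serpinh1: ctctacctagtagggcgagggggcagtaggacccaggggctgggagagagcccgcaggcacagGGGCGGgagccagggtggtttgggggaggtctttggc
A GC box was searched as GGGCGG on either strand, a CCAAT box as CCAAT and a TATA box as TATAAA, also on either strand. Of the 44 windows found for 41 of the 55 genes, 23 (52.3%) held a GC box, against 24.7% of 32851 windows of the same length. CCAAT stood in 4 (9.09%) against 18.9%, and TATAAA in 2 (4.55%) against 5.56%. The Col3a1 and Col9a1 windows shown held none of the 3 motifs, which says only that these letters are not in these windows.

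Among the fibrillar collagens, whose chains form the banded fibrils of connective tissue, 10 of 11 genes were tested, 1 was higher and 3 were lower. Beside this and the class counts that follow stand the 15.8% higher and 14.1% lower of all genes tested. Col1a1 (ENSMUSG00000001506.10, chr11:94936224-94953042), the main chain of collagen I, stood at 247 and 282 CPM in GL261 and at 15.6, 10.8, 26.3 and 16.6 CPM in GL261-GSCs replicates 1 to 4. It fell by 3.93 on the log2 scale (SE 0.32, edgeR adjusted p = 0.000359), with every GL261-GSCs library below both GL261 libraries. Its partner chain Col1a2 (chr6:4504814-4541544), which with Col1a1 makes the usual form of collagen I, had no UMI in the called cells of GL261, beside 33671 UMIs of Col1a1. In GL261-GSCs, Col1a2 had 7 UMIs beside 4526 of Col1a1. Both groups were therefore near the limit of counting for Col1a2, where 3 UMIs was taken as the floor.

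Col3a1 (ENSMUSG00000026043.18, chr1:45311538-45349706), the chain of collagen III, moved the other way. It stood at 6.01 and 5 CPM in GL261 and at 22.3, 180, 201 and 174 CPM in GL261-GSCs replicates 1 to 4. GL261-GSCs replicate 1 lay apart from the other 3, and all 4 lay above GL261. The rise was 4.71 on the log2 scale (SE 0.95, edgeR adjusted p = 0.0113), with adjusted p-values of 0.0907 and 0.105 when GL261 replicate 1 or 2 was left out. Col5a2, whose start lies 192 kb from that of Col3a1 on the same chromosome, overlapped between the groups at 0.207 to 0.65 CPM.

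The chains of collagen V, which set fibril diameter, were lower in GL261-GSCs where they were abundant. Col5a1 was at 38.9 and 33.4 CPM in GL261 and at 7.92, 13.2, 1.61 and 3.19 CPM in GL261-GSCs (log2 -2.48, SE 0.71, edgeR adjusted p = 0.039). Col5a3 was at 90.4 and 114 CPM in GL261 and at 22.5, 28.8, 55.4 and 50.3 CPM in GL261-GSCs (log2 -1.38, SE 0.36, adjusted p = 0.0289). Neither gene overlapped between the groups, but the 2 chains differed in order, since Col5a1 was lowest in replicates 3 and 4 and Col5a3 in replicates 1 and 2. Leaving out GL261 replicate 1 gave edgeR adjusted p-values of 0.165 for Col5a1 and 0.0973 for Col5a3, and leaving out GL261 replicate 2 gave 0.142 and 0.18. Col5a1 was also lost without GL261-GSCs replicate 1 (0.0513) or 4 (0.0698), and Col5a3 without GL261-GSCs replicate 2 (0.0628). Summing all barcodes in place of called cells lost Col5a3 too (edgeR adjusted p = 0.0532). Without GL261-GSCs replicate 2 the log2 value of Col5a1 was -3.07.

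Collagen II and its fibril partners of type XI were abundant in both groups and uneven among the GL261-GSCs libraries. Col2a1 (ENSMUSG00000022483.17, chr15:97975602-98004695), the chain of cartilage collagen II, was at 574 and 579 CPM in GL261 and at 53.0, 52.3, 120 and 366 CPM in GL261-GSCs replicates 1 to 4. The groups did not overlap, but the difference did not pass the test (log2 -1.96, SE 0.76, edgeR adjusted p = 0.0959). It passed without GL261-GSCs replicate 4, the highest of them (log2 -2.91, edgeR adjusted p = 0.00476), and with no filter on low counts (0.0326). Col11a1 was at 353 and 414 CPM in GL261 and at 210, 201, 571 and 642 CPM in GL261-GSCs, below GL261 in replicates 1 and 2 and above it in 3 and 4 (log2 0.08, SE 0.52, adjusted p = 0.921). Col11a2 was at 27.9 and 33.1 CPM in GL261, at 30.6 and 28.8 CPM in GL261-GSCs replicates 1 and 2, and at 255 and 329 CPM in replicates 3 and 4 (log2 2.40, SE 1.14, adjusted p = 0.156). For both type XI chains the groups overlapped, and the 4 libraries of GL261-GSCs fell into the same 2 pairs. Col27a1, a fibrillar collagen of cartilage, was at 8.58 and 10.4 CPM in GL261 and at 5, 12.7, 2.03 and 0.797 CPM in GL261-GSCs, also with overlap. Whether those pairs mark separate cultures, dates or runs is not in the labels.

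**Figure D2:**
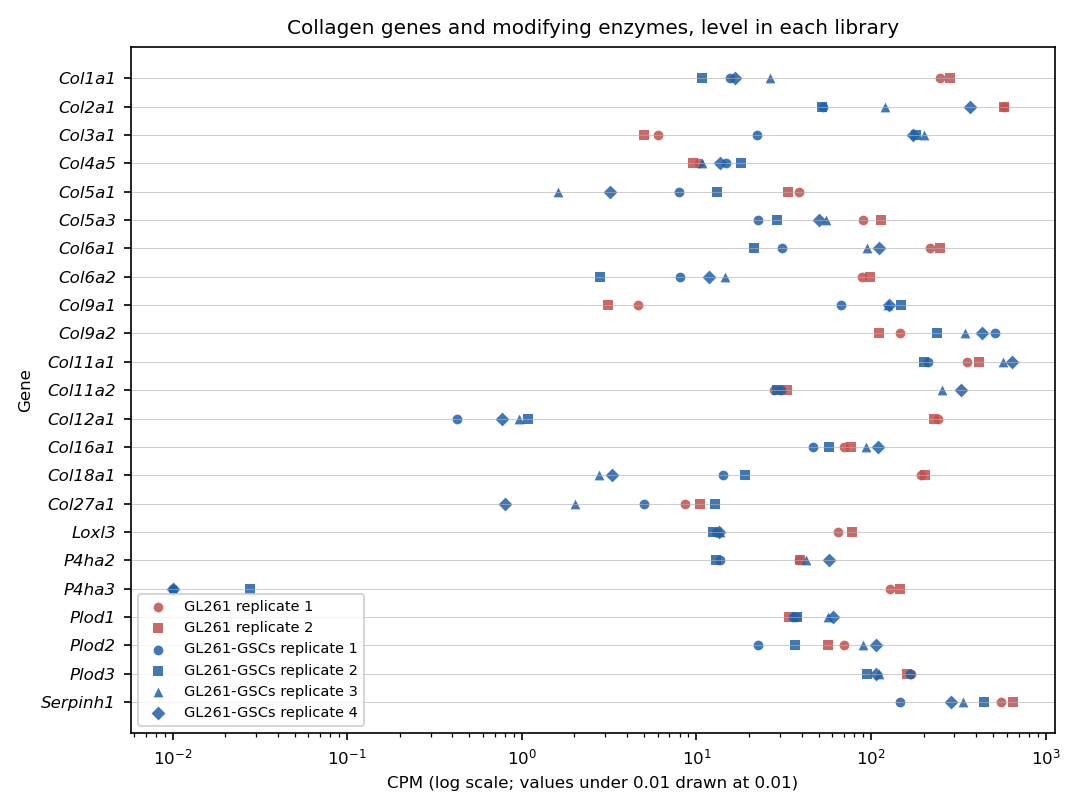
CPM (log axis) in each of the 6 libraries for the 23 genes with at least 10 CPM in some library; red points are GL261, blue points GL261-GSCs, marker shapes the replicates, and values under 0.01 are drawn at 0.01. Col12a1 and P4ha3 show the widest gaps between the groups, and Col11a2 splits the GL261-GSCs libraries between 28.8 to 30.6 and 255 to 329 CPM.

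The fibril-associated collagens, which sit on the surface of fibrils and link them to other matrix, held 3 of the 5 rises and the largest fall among the chains. Of 9 genes, 7 were tested, 3 were higher and 1 was lower. Col9a1 (ENSMUSG00000026147.16, chr1:24177610-24252684) was at 4.65 and 3.10 CPM in GL261 and at 67.5, 148, 125 and 127 CPM in GL261-GSCs. It rose by 4.91 on the log2 scale (SE 0.42, edgeR adjusted p = 0.00043), with no overlap. Col9a2 was at 146 and 111 CPM in GL261 and at 516, 240, 345 and 430 CPM in GL261-GSCs, again with no overlap (log2 1.57, SE 0.33, adjusted p = 0.0126). That call was lost without GL261 replicate 1 (adjusted p = 0.0694) or 2 (0.123). Col9a3, the remaining chain of collagen IX, stayed at 1.21 to 3.02 CPM in all libraries and was not called (log2 0.66, adjusted p = 0.22). In each library Col9a2 had 88.2 to 275 times as many UMIs as Col9a3.

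Col12a1 (ENSMUSG00000032332.17, chr9:79598991-79718831), the chain of collagen XII of dense connective tissue, was at 241 and 229 CPM in GL261 and at 0.425, 1.09, 0.963 and 0.769 CPM in GL261-GSCs. It fell by 8.16 on the log2 scale (SE 0.34, edgeR adjusted p = 4.18e-05), and the groups lay far apart. Col16a1 was at 69.8 and 76.7 CPM in GL261 and at 46.8, 57.3, 93.3 and 109 CPM in GL261-GSCs, overlapping (log2 0.06, adjusted p = 0.904). It too was lower in GL261-GSCs replicates 1 and 2 than in 3 and 4. Col22a1, found at tissue junctions, was higher in GL261-GSCs (log2 2.38, adjusted p = 0.0181), at 0.795 to 1.79 CPM in GL261 and 4.26 to 9.81 CPM in GL261-GSCs, and was lost without GL261 replicate 1 (0.0515, log2 3.08) or 2 (0.139).

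Collagen VI is a beaded filament at cell surfaces made from Col6a1, Col6a2 and a longer chain, and 2 of its 3 chains tested were called lower in GL261-GSCs. Col6a2 was at 88.5 and 98.5 CPM in GL261 and at 8.02, 2.82, 14.6 and 11.8 CPM in GL261-GSCs (log2 -3.33, SE 0.54, edgeR adjusted p = 0.00496). Col6a1, whose start lies 103 kb away on chromosome 10, was at 218 and 248 CPM in GL261 and at 31.1, 21.4, 94.2 and 111 CPM in GL261-GSCs, which did not overlap and did not pass the test (log2 -1.86, SE 0.63, adjusted p = 0.0639). It did pass without GL261-GSCs replicate 4 (0.0423), with no filter (0.0166), in DESeq2 (0.00920) and in limma-voom (0.0487). The ratio of Col6a1 to Col6a2 UMIs, 2.47 and 2.52 in GL261, was higher in every GL261-GSCs library, at 3.87, 7.60, 6.44 and 9.38. The long chain Col6a3 was at 4.28 and 4.79 CPM in GL261 and at 0.35 CPM or less in GL261-GSCs, with no UMI in replicates 1 and 4 (log2 -5.45, adjusted p = 0.0167; 0.0792 and 0.0901 without GL261 replicate 1 or 2, and 0.0509 in DESeq2). In GL261-GSCs, 28 of its 29 UMIs were in replicate 3, and without that library its log2 value was -9.20. Col6a4, Col6a5 and Col6a6 had 5 UMIs or fewer each over all called cells.

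The network collagens of basement membranes were scarce, and 3 of the 4 tested were lower. Col4a1 and Col4a2, the chains found in nearly all basement membranes, start 21 bp apart on opposite strands of chromosome 8, and no source used here says whether counting used the strand. They were at 0.755 and 0.762 CPM and at 0.237 and 0.298 CPM in GL261, and at 0.207 CPM or less and 0.091 CPM or less in GL261-GSCs, with no overlap. Both fell by 2.70 on the log2 scale (edgeR adjusted p = 0.0303 for Col4a1 and 0.0205 for Col4a2). Without GL261 replicate 1 or 2 neither passed (0.142 and 0.148 for Col4a1, 0.108 and 0.154 for Col4a2), and Col4a2 did not pass without GL261-GSCs replicate 3 (0.0541) and stood at a log2 value of -3.52 without replicate 1. Col4a4 fell by 2.40 (adjusted p = 0.00656; 0.0545 and 0.0694 without GL261 replicate 1 or 2), and its neighbour Col4a3, 72 bp away on the opposite strand, was not tested, with 2 UMIs in GL261 against 19 in the other group. Col4a5 was the most abundant chain of this class, at 10.3 and 9.58 CPM in GL261 and 14.8, 18.1, 10.7 and 13.6 CPM in GL261-GSCs, above GL261 in all 4 but not called (log2 0.52, adjusted p = 0.134).

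Of the other collagens, Col18a1 carried the largest level. Col18a1 (ENSMUSG00000001435.15, chr10:77052178-77166548), whose chain holds the endostatin fragment, was at 193 and 202 CPM in GL261 and at 14.1, 18.9, 2.78 and 3.30 CPM in GL261-GSCs (log2 -4.33, SE 0.76, edgeR adjusted p = 0.00696). All GL261-GSCs libraries lay below GL261, and replicates 3 and 4 below 1 and 2. Col8a1, Col7a1 and Col28a1 were also lower (log2 -4.53, -2.08 and -7.12, adjusted p = 0.00404, 0.0176 and 0.000529) from levels of 2.14 to 3.88 CPM in GL261. The Col7a1 call was lost without GL261 replicate 1 (0.101) or 2 (0.0977). Col17a1, a transmembrane collagen of epithelial anchoring structures, was higher: 0.504 and 0.48 CPM in GL261 against 2.71, 3.63, 6.82 and 3.76 CPM in GL261-GSCs (log2 3.10, SE 0.46, adjusted p = 0.00359). Col15a1, Col20a1, Col23a1 and Col24a1 were tested and not called, though Col15a1 and Col24a1 passed without GL261-GSCs replicate 1 (0.0111 and 0.0375) and Col20a1 without replicate 4 (0.0349). Col20a1 also passed in DESeq2, with no filter and with library size scaling.

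All 4 lysyl oxidases that could be tested fell in GL261-GSCs (median log2 -3.64). Loxl3 was the most abundant, at 64.5 and 77.5 CPM in GL261 and at 12.9, 12.4, 13.6 and 13.4 CPM in GL261-GSCs, a mean of 13.1 ± 0.529 (SD, n = 4) in the latter (log2 -2.44, SE 0.13, edgeR adjusted p = 8.86e-05). Loxl2 was at 4.18 and 3.56 CPM in GL261 and at 0.152 to 0.247 CPM in GL261-GSCs (log2 -4.18, adjusted p = 0.000169), and Loxl4 was at 1.41 CPM in both GL261 libraries and at 0.0607 to 0.235 CPM in GL261-GSCs (log2 -3.11, adjusted p = 0.00431). For Loxl1, 100 UMIs were counted in GL261 against 1 in GL261-GSCs, a ratio of 199 (95% counting interval 34.9 to 7947; adjusted p = 0.00125). None of these 4 overlapped between the groups. Lox itself had 1 and 6 UMIs in the 2 groups.

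P4ha3 (ENSMUSG00000051048.17, chr7:100285520-100319699) was nearly absent from GL261-GSCs. It was at 129 and 147 CPM in GL261, or 17572 UMIs, and had 2 UMIs in GL261-GSCs, both in replicate 2. The ratio of levels was 17505 (95% counting interval 4845 to 144554; edgeR adjusted p = 2.47e-05). P4ha2, a paralogous catalytic subunit, was at 38.8 and 39.1 CPM in GL261 and at 13.6, 13.0, 42.2 and 57.3 CPM in GL261-GSCs, overlapping (log2 -0.31, SE 0.62, adjusted p = 0.738). The third subunit of this family, P4ha1, was fixed as a comparison gene outside the set. It was at 92.1 and 103 CPM in GL261 and at 75, 72.2, 233 and 339 CPM in GL261-GSCs (log2 0.88, adjusted p = 0.357), again with replicates 3 and 4 above 1 and 2.

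The 3 lysyl hydroxylases, which prepare the cross-link sites, overlapped between the groups, and none passed edgeR, DESeq2 or limma-voom or had an unadjusted edgeR p under 0.05. Plod1 was at 36.9 and 34.1 CPM in GL261 and at 35.7, 37.5, 56.5 and 60.2 CPM in GL261-GSCs (log2 0.42, SE 0.25, edgeR adjusted p = 0.251). Plod2 was at 69.7 and 56.9 CPM in GL261 and at 22.6, 36.4, 90.2 and 107 CPM in GL261-GSCs (log2 0.01, SE 0.60, adjusted p = 0.988). Plod3 was at 170 and 160 CPM in GL261 and at 166, 94.6, 111 and 107 CPM in GL261-GSCs (log2 -0.47, SE 0.23, adjusted p = 0.169). Plod2 lay on both sides of GL261 in the same pairs as Col11a1, and Plod3 was within the GL261 range only in replicate 1 of GL261-GSCs. Without that library Plod3 passed the test, with an adjusted p of 0.0124.

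Serpinh1 (ENSMUSG00000070436.12, chr7:99345376-99353239, minus strand) had the highest CPM of the modifying class in every library but GL261-GSCs replicate 1, where Plod3 was higher. It was at 552 and 651 CPM in GL261 and at 147, 443, 335 and 285 CPM in GL261-GSCs replicates 1 to 4. The groups did not overlap, and the difference did not pass the test (log2 -0.99, SE 0.38, edgeR adjusted p = 0.09). Without GL261-GSCs replicate 1, the lowest library, it was smaller and passed (log2 -0.75, adjusted p = 0.0395). On all 6 libraries it passed in DESeq2 (adjusted p = 0.0378) and with no filter (0.048).

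The low level in GL261-GSCs replicate 1 went with a split among its cells, a view chosen after the levels were seen. Among cells with at least 10000 UMIs, 61.8% (2040 of 3299, 95% exact binomial interval 60.2 to 63.5) had no Serpinh1 UMI in that library. A Poisson spread of its mean over the same cells would leave 8.93% at 0. In GL261 replicates 1 and 2 the shares without a UMI were 1.80% (interval 1.39 to 2.29) and 1.43% (1.07 to 1.87). In GL261-GSCs replicates 2, 3 and 4 they were 1.80% (1.41 to 2.27), 3.62% (3.06 to 4.25) and 7.89% (6.41 to 9.59). The Poisson shares were 0.0427% and 0.0329% in GL261 replicates 1 and 2, and 0.324%, 1.45% and 2.43% in GL261-GSCs replicates 2, 3 and 4. An excess over Poisson was therefore found in every library, and what set GL261-GSCs replicate 1 apart was the size of its share. Depth was similar in both kinds of cell: those without a UMI in GL261-GSCs replicate 1 had a median of 16973 UMIs and those with 2 or more had 17596. In the cells with 2 or more UMIs, Serpinh1 reached 429 CPM (here without TMM scaling) in that library, beside 351 to 466 in the other 3 GL261-GSCs libraries and 557 and 620 in GL261. Picking cells by their Serpinh1 UMIs raises this level by itself, so the likeness among libraries is partly built in. With cells of at least 15000 UMIs the share without a UMI was 60.4%.

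**Figure D3:**
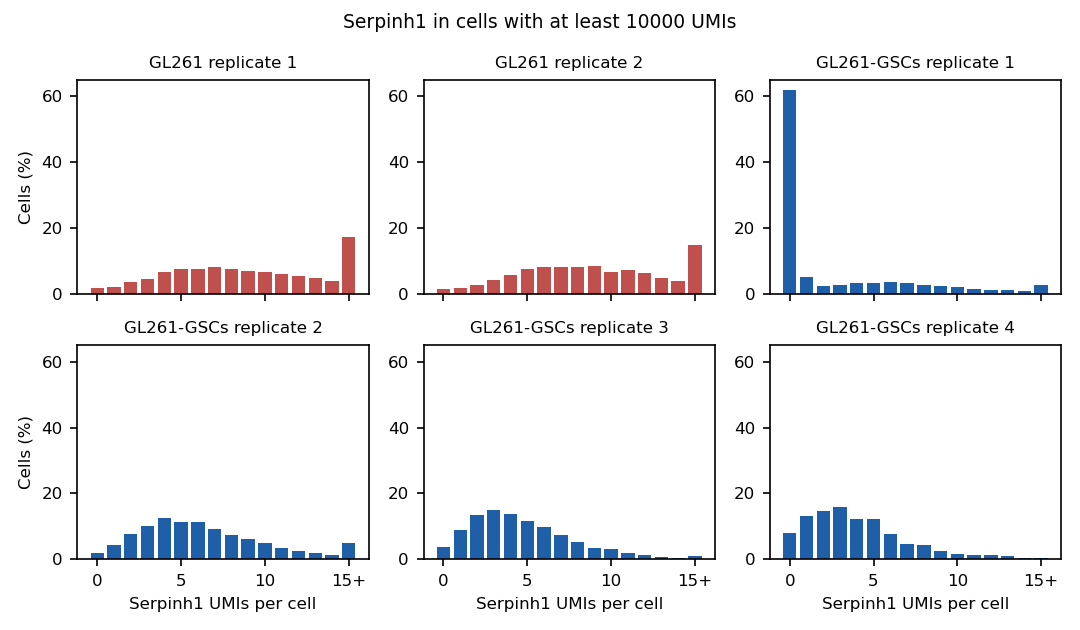
Percent of cells (vertical axis) by number of Serpinh1 UMIs per cell (horizontal axis, 15 or more pooled) among cells with at least 10000 UMIs, 1 panel per library, red for GL261 and blue for GL261-GSCs. In GL261-GSCs replicate 1 a bar of 61.8% stands at 0 beside a separate hump of cells with several UMIs; in the other 5 libraries the bar at 0 is 7.89% or less.

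Within GL261-GSCs replicate 1, the 2040 cells without Serpinh1 and the 1094 cells with 2 or more UMIs also differed along chromosome 7, which holds Serpinh1. These are cells of 1 library, so the values describe that library and carry no test. The median log2 ratio of cells with over cells without (1 CPM added to each) was 0.23 over 741 other genes of chromosome 7 with at least 200 UMIs. The medians of the other 19 chromosomes lay between -0.06 and 0.11. By distance from the Serpinh1 start, the median was 0.50 in the 10 Mb on the side of lower coordinates (34 genes) and 0.06 in the 10 Mb on the other side (53 genes). Close to the gene, Map6 (0.09 Mb away) was at 50.5 CPM in cells without Serpinh1 and 72.0 in cells with it. Thap12 (0.65 Mb away) was at 33.1 and 55.1. Map6 and Thap12 were picked after their values were seen and do not stand for all genes near Serpinh1. P4ha3, which starts 932 kb on the other side of Serpinh1, had no UMI in this library. In the 10 Mb bins from 10 to 20 Mb before the gene (46 genes) and from 40 to 80 Mb before it, the medians were 0.36 and 0.29 to 0.39. Between those stretches, from 20 to 40 Mb before it, they were 0.02 and -0.07, and from 80 to 100 Mb before it they were -0.07 and 0.05. On the other side, bins from 10 to 50 Mb beyond the gene were at 0.39, 0.22, 0.17 and 0.08 in order of distance. Doublets were not removed, and the cause of this pattern was not tested.

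**Figure D4:**
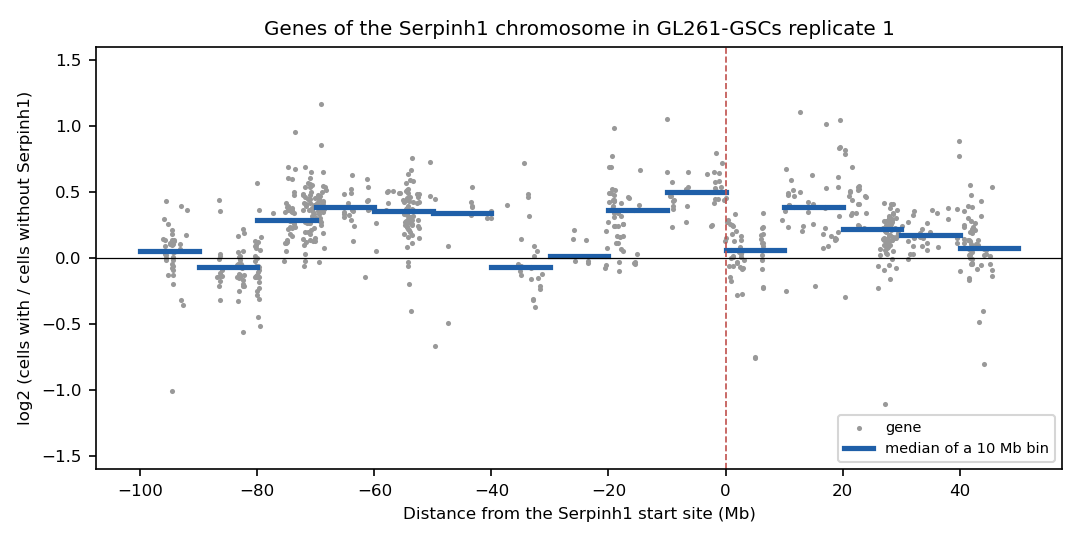
Log2 ratio of the level in cells with 2 or more Serpinh1 UMIs over cells with none (vertical axis), for 741 genes of the same chromosome by distance of their start from that of Serpinh1 in Mb (horizontal axis), in GL261-GSCs replicate 1; grey points are genes and blue bars medians of 10 Mb bins. The medians step between about 0 and 0.50, with the highest bin ending at Serpinh1 and the next one at 0.06.

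Some other members also stood at different levels in these cells, again with no test. Among those with at least 200 UMIs over both kinds of cell, Col6a1 stood at 34.6 CPM in cells without Serpinh1 and 14.3 in cells with it, and Col6a2 at 9.06 and 4.38 (log2 of with over without -1.21 and -0.90). Col18a1 went the other way, at 10.0 and 18.1, as did Col11a2 at 24.2 and 39.7 (log2 0.80 and 0.69). Col2a1 (45.5 and 44.0), Col1a1 (15.6 and 14.6) and Loxl3 (12.4 and 12.2) were nearly level.

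Summed over the 44 chains, collagens made up 2226 and 2270 of every 1000000 UMIs of called cells in GL261, and 1100, 1091, 1951 and 2626 in the GL261-GSCs libraries. GL261-GSCs replicate 4 lay above GL261 and the others below, so that the groups overlapped (2-sided exact permutation p = 0.533, where the smallest possible with these groups is 0.133). The 11 enzyme and chaperone genes summed to 1015 and 1074 in GL261 and to 401, 659, 653 and 689 in GL261-GSCs, with no overlap (exact permutation p = 0.133, 0.267 after Benjamini-Hochberg adjustment over 6 sums). The chains that made up these UMIs differed between the groups. In GL261, Col2a1 gave 24.5% and 23.4% of them, Col11a1 15.1% and 16.7%, and Col1a1, Col12a1 and Col6a1 9.25 to 11.4% each. In GL261-GSCs, Col9a2 gave 47.2%, 22.7%, 17.8% and 17.9% and Col11a1 19.3%, 19.1%, 29.4% and 26.7%. Col1a1 gave 0.692 to 1.43% there and Col12a1 0.032 to 0.103%. The 95% exact binomial intervals of these shares reached at most 0.365 percentage points to either side.

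**Figure D5:**
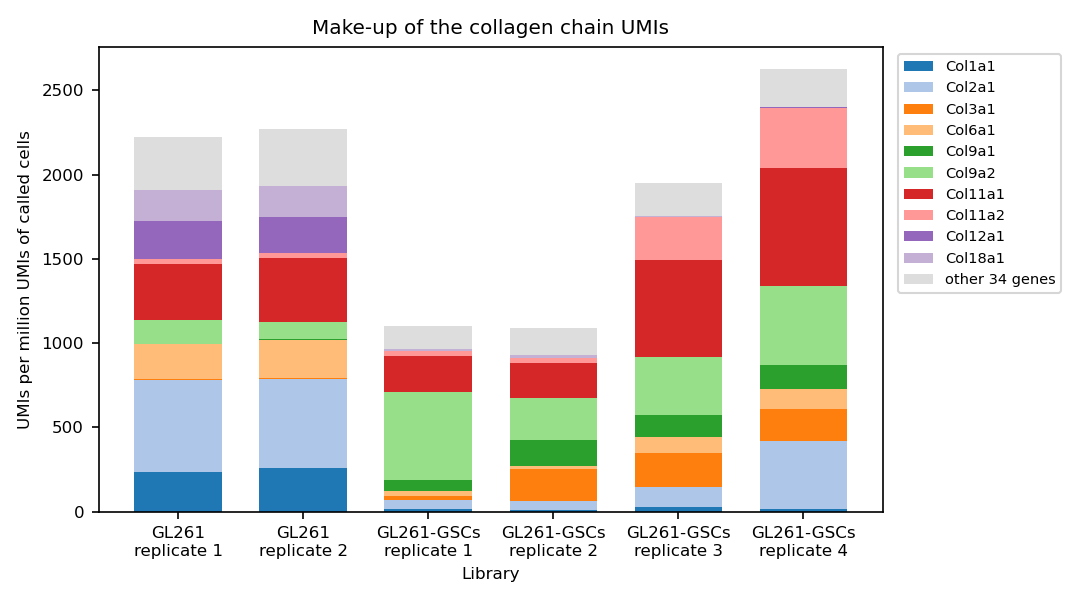
UMIs of collagen chains per 1000000 UMIs of called cells (vertical axis, stacked bars from 0) in each of the 6 libraries, with 10 chains coloured and the other 34 in grey. Col1a1, Col12a1 and Col18a1 make visible blocks only in GL261, and Col3a1 and Col9a1 only in GL261-GSCs, while Col11a1 and Col9a2 are in every bar.

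Shares of cells with a UMI were compared after each cell was thinned to 2000 UMIs, for the 23 genes with at least 10 CPM in some library. Col12a1 was found in 32.5% and 31.9% of cells in GL261 and in 0.117%, 0.239%, 0.302% and 0.177% in GL261-GSCs, all above the 0.00144 to 0.0179% that free RNA would give there. P4ha3 was found in 22% and 23.1% of GL261 cells (exact binomial intervals 20.8 to 23.2 and 21.9 to 24.3) and in 1 thinned cell of GL261-GSCs. For its counts of 0 in replicates 1, 3 and 4 the upper ends of the same 95% interval were 0.0865%, 0.0507% and 0.0817%, and the limit of 3 cells that a count of 0 allows gives 0.0704%, 0.0412% and 0.0665%. Both bound the share of cells in which P4ha3 is found at this depth, not the share that express it. Before thinning, the P4ha3 shares were 72.0% and 73.8% in GL261. Free RNA would put P4ha3 in 0.605% and 0.724% of thinned GL261 cells, and in 4.58% and 4.84% before thinning. Col3a1 was found in 1.16% and 1.02% of GL261 cells and in 4.97%, 27.1%, 27.3% and 23.7% in GL261-GSCs, and Col9a1 in 0.915% and 0.42% against 12.3%, 26.1%, 23.6% and 24.3%. Free RNA would put Col3a1 in 0.013 to 0.018% of GL261 cells and 0.0726%, 0.748%, 0.922% and 3.51% of GL261-GSCs cells, and Col9a1 in 0.0201 to 0.0259% and 0.511%, 0.969%, 1.35% and 2.46%. For 17 of the 23 genes, these 4 among them, the groups' shares did not overlap, against 56.9% of 9895 genes of the same minimum level. Each of the 17 reached a p of 0.133 in the 2-sided exact permutation test, the smallest that 2 libraries against 4 can give, and 0.18 with the 23 genes adjusted for together by Benjamini-Hochberg. These intervals cover counting error only.

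Col2a1 was spread unevenly over the cells. In GL261-GSCs replicate 4 its UMIs in thinned cells had a variance 8.05 times their mean, and the 1% of cells with the most held 20.5% of them, where Poisson counts of the same mean would put 4.29%. In GL261-GSCs replicates 1, 2 and 3 the ratio was 2.88, 2.21 and 4.63, and in GL261 it was 2.99 and 2.97. The ratio depends on the mean per thinned cell, which was 0.138 and 0.131 in GL261-GSCs replicates 1 and 2. That mean was 1.17 and 1.14 in GL261, so the ratios do not rank the libraries by unevenness. The top 1% held 30.6%, 29.4% and 27.4% in GL261-GSCs replicates 1, 2 and 3, where Poisson counts would put 13.8%, 13.9% and 7.60%, and 10.2% and 11% in GL261, where they would put 4.15% and 4.18%. Free RNA in GL261-GSCs replicate 4 would put Col2a1 in 6.99% of thinned cells, beside a measured share of 38.3% (interval 36.9 to 39.7). Across the cells of a library, Pearson's r was taken between Col11a1 and Col11a2, as log2 of 1 plus the thinned count. It was 0.33 in 7275 cells of GL261-GSCs replicate 3 and 0.35 in 4512 cells of replicate 4, and 0.07 to 0.14 in the other 4 libraries. Col11a2 was found in 35.4% and 44.9% of thinned cells in GL261-GSCs replicates 3 and 4, but in 4.87 to 6.05% in the other 4 libraries. Sparse counts limit r, so these values do not rank the libraries. Cells of a library share its preparation, and these correlations are descriptions.

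The 14 genes that did not pass the filter had at most 14 UMIs in any library: Col1a2, Col4a3, Col4a6, Col6a4, Col6a5, Col6a6, Col8a2, Col10a1, Col13a1, Col14a1, Col19a1, Col25a1, Col26a1 and Lox. Each had at least 1 UMI somewhere, and their highest level was 0.232 CPM (Col14a1 in GL261 replicate 2). Fitted with no filter, where 17.0% of 32817 genes were called, Col14a1 was called lower in GL261-GSCs (22 UMIs in GL261 against 7, log2 -2.58, edgeR adjusted p = 0.0215), and the other 13 were not called, with adjusted p-values from 0.0716 to 0.894. Col4a3, at 2 UMIs against 19, had a ratio of 4.77 (95% counting interval 1.15 to 42.2) and an adjusted p of 0.232 in that fit.

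Genes that act with collagens did not move as one, in lists chosen with earlier results of these data known. Of 25 genes for chain folding, secretion and propeptide removal, 22 were tested, 4 were higher and 4 lower in GL261-GSCs (median log2 -0.32), beside 15.8% higher and 14.1% lower of all genes tested. The largest fall was in Sparc, a secreted collagen-binding protein, at 1972 and 2058 CPM in GL261 and at 394, 436, 246 and 369 CPM in GL261-GSCs (log2 -2.48, SE 0.22, edgeR adjusted p = 0.000513). The largest rise at an average log2 CPM of at least 3 was in Adamts14, a procollagen N-proteinase, at 11.3 and 7.55 against 30.8, 19.9, 23.7 and 21.9 CPM (log2 1.36, adjusted p = 0.00884; 0.0936 without GL261 replicate 2). The others higher were Fkbp7, Colgalt2 and Tll2, and the others lower P4hb, P3h4 and Fkbp10. With each of the 6 libraries left out in turn, P4hb was lost in 5 fits (edgeR adjusted p = 0.0829 to 0.255), Fkbp7 in 4 (0.0556 to 0.241), Colgalt2 in 2 and P3h4 in 1. P3h1, Crtap and Ppib, the subunits of the prolyl 3-hydroxylase complex, were not called. In this list 2 genes were higher and 3 lower without GL261 replicate 1 (5.11% and 5.21% of all genes), 1 and 2 without GL261 replicate 2 (4.31% and 4.98%), and 3 and 7 without GL261-GSCs replicate 4 (16.3% and 13.7%). DESeq2 called 8 lower and edgeR on barcodes of at least 1000 UMIs 7, where 16.7% and 13.6% of all genes were lower. In 12 of the 22 every GL261-GSCs library lay below both GL261 libraries and in 5 every one lay above, against 28.0% and 28.7% of all genes. In the other 5 the groups overlapped.

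Of 10 collagen receptors, 9 were tested, 1 was higher and 4 lower (median log2 -0.93), beside the same 15.8% and 14.1% of all genes. Itga1, the alpha chain of a collagen-binding integrin, was at 58.4 and 63.1 CPM in GL261 and at 0.349, 1.5, 1.23 and 0.879 CPM in GL261-GSCs (log2 -5.92, SE 0.48, edgeR adjusted p = 0.000354), and its partner Itgb1, Itga10 and Ddr2 were lower too. Itga10 was lost in 5 of the 6 fits that leave out 1 library (edgeR adjusted p = 0.0604 to 0.364), Ddr2 in 2 and Itgb1 in 1. Mrc2, a receptor that takes collagen fragments into the cell, was higher, at 4.67 and 5.75 CPM against 12.4, 9.83, 17.3 and 17.4 CPM (log2 1.45, adjusted p = 0.0119; 0.114 and 0.078 without GL261 replicate 1 or 2). With GL261 replicate 1 left out, 1 of the receptors was lower and none higher, and with replicate 2 left out 2 and none, where 5.21% and 4.98% of all genes were lower.

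Of 10 collagen-degrading proteases, 7 were tested, 3 were higher and 1 lower (median log2 0.34), again beside 15.8% and 14.1%. Mmp16, a membrane-bound metalloprotease, was at 1.05 and 0.414 CPM in GL261 and at 58.0, 37.8, 72.3 and 109 CPM in GL261-GSCs (log2 6.55, SE 0.67, edgeR adjusted p = 0.0008; log2 7.37 without GL261 replicate 1). Mmp15 and Ctsk were higher too. Mmp14, the membrane-bound collagenase, was at 51.9 and 50.0 CPM in GL261 and at 19.8, 20.6, 6.49 and 5.71 CPM in GL261-GSCs (log2 -1.95, SE 0.54, adjusted p = 0.0347), and was not called without GL261 replicate 1 (0.148), GL261 replicate 2 (0.148) or GL261-GSCs replicate 3 (0.0639). Of the 7 tested, 4 had every GL261-GSCs library above both GL261 libraries, 1 had every one below and 2 overlapped, where 56.7% of all genes did not overlap.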

How the data were processed

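The authors deposited unfiltered raw UMI counts for each gene and barcode, made with Cell Ranger 4 per the file headers; the submitters' processing notes name Cell Ranger and the build mm10, while no source used here gives the annotation release. Gene and barcode lists came with the deposited counts. Groups and replicate numbers were read from sample titles.

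Cells were called as barcodes reaching 10% of the 99th percentile of UMIs among the 3000 largest in a library, with at least 500 genes and under 10% mitochondrial UMIs; doublets were not removed. UMIs were summed over called cells, the library being the replicate. All genes were fitted with edgeR 4.0.16 in R 4.3.3 (quasi-likelihood test, TMM, filterByExpr, 2-sided, Benjamini-Hochberg over all genes, no block). DESeq2 1.42.0 and limma 3.58.1 served as alternatives. The fit was tried on counts simulated with its own dispersions, where 200 genes were given a log2 change of 2 in either direction. It called 163 of them with the right sign, and 12 of its 175 calls were false. The SE is the absolute log2 fold change over the square root of F. Where a group held only 1 to 3 UMIs of a gene, the ratio of levels with its 95% counting interval replaces the fitted fold change. Free RNA was taken from barcodes of at least 100 and under 1000 UMIs. Exact tests used scipy 1.17.1. Coordinates come from GENCODE M21 (GRCm38), for all 55 genes.

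Values are given for every member with at least 10 CPM in a library; other members are named where called or where they belong to a chain pair, and the latter were chosen after their values were seen. From each list of other genes, the largest change each way at an average log2 CPM of at least 3 is given, plus P4ha1 and Sparc. The members, lists and alternatives were chosen with earlier results of these data known. Replicate numbers 1 and 2 occur in both groups. No label says whether they pair the libraries, and the main fit did not pair them.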

Additional observations from a re-analysis of the deposited data

Results flagged for a closer look

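In groups of 4 libraries, 3 values stood apart from the rest by Dixon's test at the 95% level, out of 29 groups checked. The groups share libraries and some share genes, so this count cannot be set against a rate of 1 in 20. Col3a1 in GL261-GSCs replicate 1 was at 22.3 CPM, with the other 3 libraries between 174 and 201 CPM. The summed UMIs of the modifying enzymes and chaperone in GL261-GSCs replicate 1 were 401 per 1000000 UMIs, with the other 3 between 653 and 689; Serpinh1, at 147 CPM there, was the largest part of that gap. P4ha3 in GL261-GSCs replicate 2 was at 0.0276 CPM, which is 2 UMIs, with the other 3 libraries at 0, so that any UMI there would be flagged.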

How the results depend on the processing

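Of the 23 genes called, 13 were called in all 16 alternatives, 10 were lost in some and none changed sign. Of the 18 not called, 16 were called in some and 6 changed sign. The same was not counted over all genes, so it cannot show whether the members held better or worse than others. Without 1 GL261-GSCs library, 22.7 to 33.8% of all genes tested were called. Leaving out each library in turn gave 1817 to 6193 genes called over all genes (843 to 3372 higher, 974 to 2821 lower), 13 to 26 members, 2 to 6 collagen chains higher and 6 to 14 lower; a left-out GL261 library leaves 1, assumed to vary like the others. GL261-GSCs replicates 3 and 4 alone gave 9881 genes, or 54.9% of all tested (5171 or 28.7% higher, 4710 or 26.2% lower). They gave 36 of 41 members, 10 of 31 collagen chains higher, 2 enzyme genes higher and P4ha2 at 0.37. The difference in the collagen sum was 40.7 there in place of -556 (per 1000000 UMIs). Leaving out a single library moved the size of that difference but not its sign, and it was largest without GL261-GSCs replicate 4. Replicates 1 and 2 alone gave 6985 genes, or 39.8% of all tested (3664 or 20.9% higher, 3321 or 18.9% lower). They gave 8 of 30 chains higher, a median of -1.65, and Col5a2 at -0.40, Col11a1 at -0.89, Col11a2 at -0.031, Col16a1 at -0.49 and Plod2 at -1.09. The replicate block, which leaves replicates 3 and 4 out of the contrast in effect, gave 6512 genes (3441 or 18.7% higher, 3071 or 16.7% lower). It gave 8 chains higher, 8 enzyme and chaperone genes lower and a median of -1.55. Col5a2 was at -0.34, Col11a1 at -0.89 (edgeR adjusted p = 0.00625), Col11a2 at -0.034, Col16a1 at -0.50 (0.0273) and Plod2 at -1.13 (0.0217). Deviations of same-numbered libraries correlated at -0.03 and 0.04. With 2 GL261 libraries their deviations mirror each other, so these correlations cannot show whether the numbers mark pairs. With no filter the median was -0.47. limma-voom gave Col11a1 -0.12, Col16a1 -0.021 and Plod2 -0.26. Without 1 library the log2 values reached -0.49 to 0.95 for Col5a2, -0.20 to 0.33 for Col11a1, -0.13 to 0.26 for Col16a1 and -0.32 to 0.31 for Plod2. Differences in cell shares turned without thinning for Col16a1 (-3.08 points), P4ha2 (-13.3) and Plod2 (-8.76), and ranged without 1 library over -1.86 to 9.91 for Col11a1, -1.80 to 1.74 for P4ha2 and -0.89 to 5.45 for Plod2. Scaling by library size moved the median of all genes from 0.04 to 0.18. Other causes were not tested. GL261-GSCs replicate 4 held the fewest UMIs in called cells (33320530), and few UMIs limit Col4a1, Col4a2, Col4a4, Col28a1 and Loxl1.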
